A study of Rattus norvegicus with 24 samples.

Results

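The kidney response to pregnancy that 2 rat strains have in common was taken from 12 RNA-seq libraries, which are 12 of the 24 samples of the series (the others are methylation libraries, not used here). Each library came from the kidney of 1 rat, as a section through cortex and medulla. All rats were females, 2 months old by their sample labels. CD rats are outbred Sprague Dawley rats, and BN rats are inbred Brown Norway rats, which the study uses as a model of pregnancy with placental insufficiency and growth-restricted fetuses. In each strain, 3 rats were non-pregnant (CD-NP, BN-NP) and 3 were at day 18 of pregnancy (CD-P18, BN-P18). Pregnancy is the only treatment that the labels name. The 6 P18 rats were set against the 6 NP rats in a model with strain and stage as terms, so that each gene has 1 pregnancy effect averaged over the strains. With a single day of pregnancy, the course over gestation is not seen. Of 32883 genes in the count table, 14212 had enough reads to be tested, and the 12 libraries held 8274159 to 11879451 reads on genes.

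In pregnancy the kidney filters more blood, holds back salt and water for an expanding circulation, and handles more calcium and phosphate for the fetus. The maternal immune system changes at the same time. Type I interferons, which cells release on sensing viral or other foreign nucleic acid, act through a transcription factor complex that contains Irf9 on promoters that carry the interferon-stimulated response element (ISRE). The genes that follow encode sensors, degraders and editors of double-stranded RNA, ubiquitin-like tags and their ligases, and proteins for antigen display.

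Averaged over the strains, 309 genes were differentially expressed (DEGs), or 2.17% of the genes tested, where a DEG had an adjusted p under 0.1 and a level at least 25% higher in 1 stage than in the other. Of these, 186 were higher in P18 (1.31% of genes tested) and 123 lower (0.865%). The higher genes moved further, with a median log2 fold change of 0.75 and 62 genes over 2-fold, than the lower genes, with a median of -0.50 and 13 genes over 2-fold. The median over all tested genes was -0.0044 on the same scale. A symbol could be paired with 271 of the DEGs, 166 higher and 105 lower, and with 2918 of the tested genes. Because symbols come from a gene table that lists genes changed in these same samples, named genes are DEGs more often than others, 9.29% in all, 5.69% of them higher and 3.60% lower, and these shares are the ones to read the lists against.

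**Figure D1:**
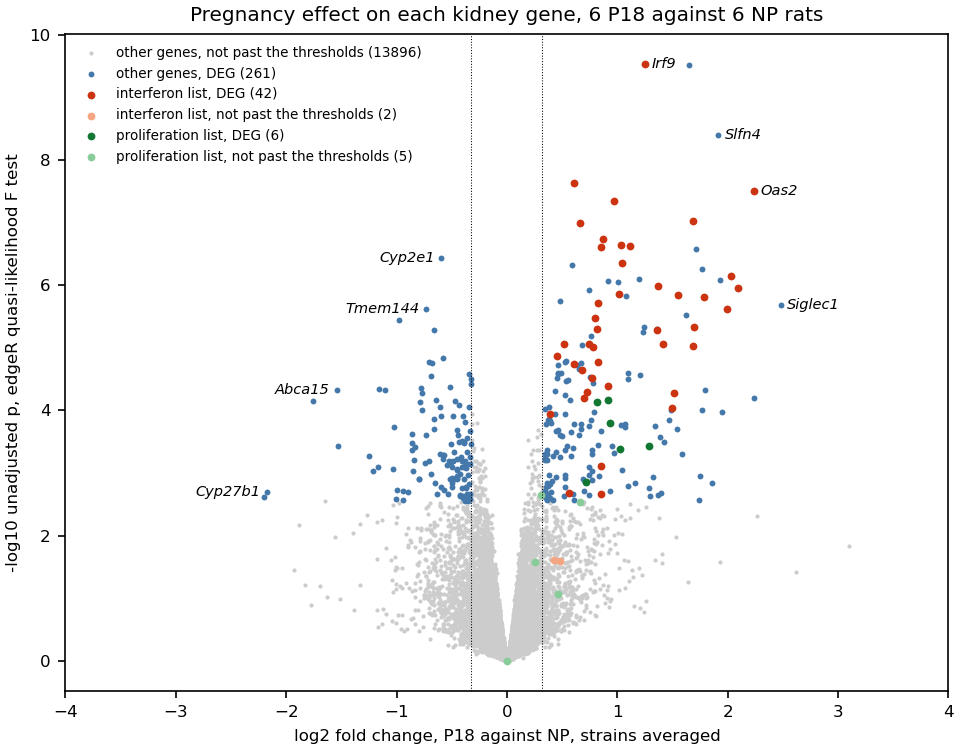
Log2 fold change of each of the 14212 tested genes, P18 against NP averaged over strains (x axis), and -log10 of the unadjusted p (y axis), with dotted lines at the 25% difference that a DEG must pass. Red points, the 42 DEGs of the interferon list, lie on the higher side, as do the 6 DEGs of the proliferation list in dark green, and Cyp2e1 and Tmem144 lead the lower side.

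The gene with the smallest p was Irf9 (ENSRNOG00000019478), the DNA-binding subunit of that complex. Its level in the 3 CD-NP rats was 15.6, 12.8 and 14.2 CPM (reads on the gene as a share of the scaled library, in parts per 1000000), against 34.7, 36.8 and 39.5 CPM in the 3 CD-P18 rats. In BN the same level was 15, 14.4 and 13.4 CPM in NP and 29.2, 29.3 and 34.4 CPM in P18. Every P18 rat stood above every NP rat of either strain. The rise was 2.38-fold, with a standard error of 0.0812 on the log2 scale. The Benjamini-Hochberg adjusted p over all tested genes was 2.2e-06 in the quasi-likelihood F test of edgeR, which also gave the adjusted p values that follow. Values after "rose by" and "fell by" are log2 fold changes throughout.

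The ISRE was looked for in the promoters of the interferon genes, since their levels moved together. Promoter windows of RefSeq (GRCr8, 250 bases before to 50 bases after each gene's start) were read on both strands for the letters GAAANNGAAA. They occurred in 20 of the 30 higher interferon-list genes with a single promoter in the table (66.7%). Of all 112 higher DEGs 34 held them (30.4%), these 20 included, and of the 82 not on the interferon list 14 did (17.1%). Of 76 lower DEGs 0 did. Over all 33469 promoters the share was 3.92%, and over the 2081 tested genes with a symbol and a promoter it was 4.42%. A second element, the gamma-activated sequence TTCNNNGAA, occurred in 7 of the 30 (23.3%), in 16 of the 112 higher DEGs (14.3%) and in 5 of the 76 lower DEGs (6.58%). Its share was 8.87% of all promoters and 6.30% of the tested genes with a symbol and a promoter. Both are letter matches and were not tested. Windows around the match are shown for the 5 interferon-list DEGs with the smallest p that hold one, 5′ to 3′ on the strand of the gene, with the match in capitals (TTTC letters are the same element read from the other strand).
Parp12, chr4:68850530-68850579 (- strand): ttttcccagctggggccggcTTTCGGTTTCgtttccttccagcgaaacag
Oasl2, chr12:47383307-47383356 (- strand): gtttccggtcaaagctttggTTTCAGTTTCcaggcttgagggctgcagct
Eif2ak2, chr6:21941118-21941167 (+ strand): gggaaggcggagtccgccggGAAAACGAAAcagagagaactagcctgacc
Lgals3bp, chr10:104127869-104127918 (- strand): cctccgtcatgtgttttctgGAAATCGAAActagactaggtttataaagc
Oas1a, chr12:41330405-41330460 (+ strand): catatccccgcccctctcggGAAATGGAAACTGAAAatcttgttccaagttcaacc
In Parp12, Eif2ak2 and Oas1a the match begins 18, 16 and 41 bases before the gene's start, in Lgals3bp 50 bases before it and in Oasl2 151 bases before it. In Oas1a 2 matches overlap within 16 bases.

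Of 59 interferon-stimulated genes on the list, 44 were identified, and 42 of them rose, none fell and 2 did not pass, with 39 DEGs in CD and 36 in BN. Counts by strain are given here and for the lists that follow, and for no list was the difference between the strains tested. Their median log2 fold change was 0.86, against 0.008 over all genes with a symbol. In 36 of the 44 the 6 P18 rats did not overlap the 6 NP rats in either direction, where 1.10% of all tested genes had no such overlap. Genes with a symbol are DEGs more often (9.29% against 2.17% of all), and their own share without overlap was not counted. The summed level of the 44 genes was 1227, 1073 and 1244 CPM in the CD-NP rats and 2025, 2367 and 2452 CPM in the CD-P18 rats. In BN it was 1065, 1275 and 1223 CPM in NP and 1905, 1879 and 2663 CPM in P18. The groups did not overlap in either strain, and BN-P18 replicate 3 was the highest of all 12 rats.

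Enzymes that meet double-stranded RNA rose among them. Oas2, a 2′-5′ oligoadenylate synthetase whose product activates RNase L, was at 2, 3.16 and 4.02 CPM (lowest, median and highest) in the 6 NP rats and 8.75, 14.8 and 20.2 CPM in the 6 P18 rats. These levels did not overlap, and the log2 fold change was 2.23 (standard error 0.207, adjusted p = 8.85e-05). Oas1a, of the same family, stood at 1.21, 1.84 and 3.19 CPM in NP and 6.69, 8.32 and 11.4 CPM in P18 (lowest, median and highest), a log2 fold change of 2.03 (adjusted p = 0.000553). The OAS-like genes Oasl and Oasl2 rose by 1.69 and 1.11 on the log2 scale (adjusted p = 0.000179 and 0.000291). Adar, which edits adenosine to inosine in double-stranded RNA, was at 50.6, 55.2 and 58.2 CPM in NP and 73, 87.4 and 97 CPM in P18. Its groups did not overlap, although its log2 fold change was only 0.66 (standard error 0.0673, adjusted p = 0.000179). Eif2ak2, the kinase PKR that halts translation on binding such RNA, rose by 0.85 (adjusted p = 0.000291).

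Other members of the list followed. Isg15, a ubiquitin-like tag, was at 1.79, 3.42 and 4.43 CPM in NP and 9.02, 12.6 and 23.5 CPM in P18, again without overlap (log2 fold change 2.10, standard error 0.259, adjusted p = 0.000654). Herc6, a ligase of the family that attaches Isg15, was at 35.9, 47.4 and 59.8 CPM in NP and 60.6, 97.1 and 148 CPM in P18, and its lowest P18 rat, CD-P18 replicate 1 at 60.6 CPM, lay just above its highest NP rat, BN-NP replicate 3 at 59.8 CPM. Its log2 fold change was 1.04 (adjusted p = 0.000291). The ADP-ribosyltransferase family members Parp12 and Parp9 rose by 0.97 and 0.87 (adjusted p = 0.000105 and 0.000287), and Helz2, an interferon-induced helicase and nuclear receptor coactivator, rose by 0.61 with the small standard error of 0.0548 (adjusted p = 8.18e-05).

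Of the 2 list members that did not pass, each moved in 1 strain. Ifi35 had log2 fold changes of 0.75 in CD and 0.08 in BN, and Gbp2, a guanylate-binding protein, -0.03 in CD and 0.99 in BN, with strain-averaged adjusted p of 0.264 and 0.27. With each rat left out in turn, 39 to 42 of the list's genes were higher DEGs.

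Slfn4, a Schlafen gene of myeloid cells that interferon induces, is not on the list and had the second smallest p among named genes. Its level was 43.9, 20.4 and 38.4 CPM in CD-NP and 110, 134 and 133 CPM in CD-P18. The BN levels were 20.4, 29.9 and 30.2 CPM in NP and 92.6, 106 and 115 CPM in P18. No P18 rat overlapped an NP rat, and the strains had nearly the same change (1.87 in CD and 1.96 in BN), averaging 1.91 (standard error 0.151, adjusted p = 1.88e-05). Siglec1, a sialic acid-binding lectin of macrophages, had the largest log2 fold change among named higher DEGs with a mean of at least 1 CPM, at 2.48 (standard error 0.324, adjusted p = 0.00093). It was at 0.949, 1.53 and 2.61 CPM in NP and 3.43, 9.56 and 18.5 CPM in P18, and the CD-P18 rats, at 10.7 to 18.5 CPM, stood above all BN-P18 rats. Pla2g2a, a secreted phospholipase A2, followed at 2.24 (standard error 0.4, adjusted p = 0.00955), from 0.243 to 0.986 CPM in NP to 1.19 to 8.04 CPM in P18.

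**Figure D2:**
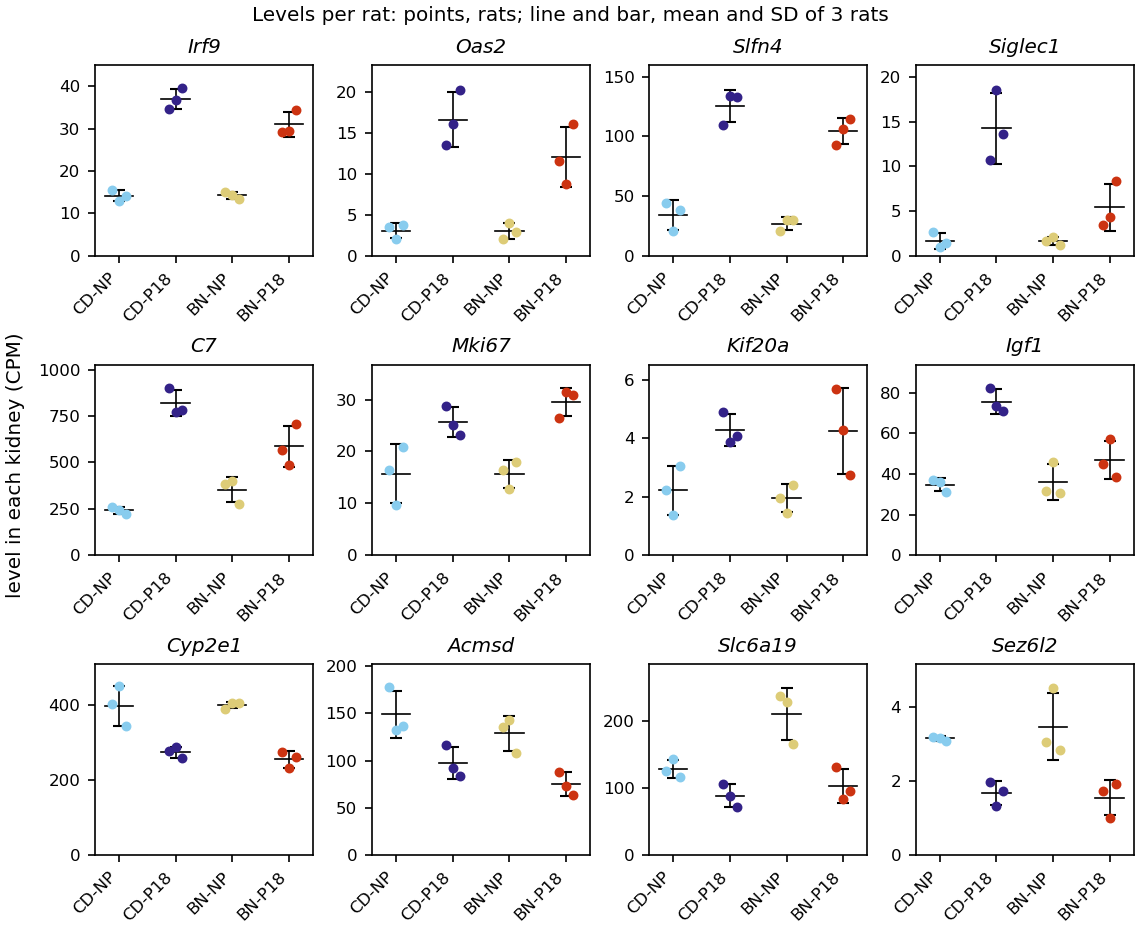
CPM of 12 genes (y axis, from 0) in each rat of the 4 groups (x axis), with the mean and SD of 3 rats. Irf9, Oas2, Slfn4, Siglec1, C7 and Mki67 show every P18 rat above every NP rat, and Cyp2e1 and Sez6l2 every P18 rat below, while for Kif20a, Igf1, Acmsd and Slc6a19 the stages overlap once the strains are pooled.

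Genes of myeloid cells rose alongside. Of 19 macrophage markers 10 were identified, of which 7 rose and 1 fell on average (median log2 fold change 0.70). Taken by strain, 9 of the 10 were DEGs in CD (median 0.70) and 3 in BN (median 0.33). Lyz2, the lysozyme of macrophages and neutrophils, was at 244, 177 and 194 CPM in CD-NP and 307, 391 and 347 CPM in CD-P18. In BN it was at 160, 148 and 160 CPM in NP and 230, 236 and 311 CPM in P18. The stages did not overlap within a strain but did across strains, and the log2 fold change was 0.75 (standard error 0.093, adjusted p = 0.000669). The lectin Clec10a rose by 0.79, the growth factor receptor Csf1r by 0.37 and the lysosomal Cd68 by 0.44 (adjusted p = 0.0136, 0.0363 and 0.0597), where the call of Cd68 held in 5 of the 12 fits that each left out a rat. Lyve1, which marks lymphatic vessels and some resident macrophages, was the 1 lower gene, with a log2 fold change of -0.39 (adjusted p = 0.0626), a call that held in 2 of these fits. Mrc1, the mannose receptor, went 1.86 in CD and -0.22 in BN and did not pass on average (adjusted p = 0.214).

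The summed level of the 10 macrophage markers was 288 to 394 CPM in the NP rats and 398 to 606 CPM in the P18 rats, none of them was at 0 in any rat, and the other 9 of the list were not identified. Their part in the rise of the interferon genes was not tested. In bulk tissue, more cells of a type and more RNA per cell cannot be told apart. Of 8 markers of plasmacytoid dendritic cells, the main source of type I interferon in blood, 4 were identified, at a sum of 51.6 to 68.8 CPM in NP and 70.7 to 99.6 CPM in P18. The 2 that rose, Tlr7, a receptor for single-stranded RNA, and Bst2, or tetherin, have other sources too. Tlr7 was at 4.53, 6.1 and 7.25 CPM in NP and 9.45, 11.7 and 20.2 CPM in P18 without overlap (log2 fold change 1.08, standard error 0.137, adjusted p = 0.000745), and Bst2, which is also on the interferon list, rose by 0.68 (adjusted p = 0.00511). Tlr7 was also the 1 DEG among the 5 identified of 23 interferon ligands, sensors and receptors. T and NK cell markers were identified for 2 of 14, with Cd4 higher by 0.33 (adjusted p = 0.0899) in 2 of the 12 fits without 1 rat, and none of 8 B and plasma cell markers was identified.

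Of 30 complement genes 6 were identified and 5 rose on average, with 5 DEGs in CD and 3 in BN. C7, which joins the membrane attack complex, was at 260, 245 and 223 CPM in CD-NP, 899, 772 and 784 CPM in CD-P18, 385, 402 and 274 CPM in BN-NP and 568, 487 and 705 CPM in BN-P18. All P18 rats stood above all NP rats, yet the change was larger in CD (1.75) than in BN (0.73), with an adjusted p of 0.0506 for the difference, and the average of 1.24 (standard error 0.174, adjusted p = 0.00171) lies between unlike changes. The subunits C1qa, C1qb and C1qc, which start the classical pathway and are also macrophage markers, rose by 0.66, 0.82 and 0.76 (adjusted p = 0.005, 0.0299 and 0.00202). C1qc was at 10.5, 13.6 and 15.9 CPM in NP and 17, 22.5 and 31.5 CPM in P18, without overlap. C6, the partner of C7 in the same complex, rose by 1.75 with a wide standard error of 0.43 (adjusted p = 0.0592, called in 8 of the 12 fits without 1 rat), and 1 rat, CD-P18 replicate 1 at 24.3 CPM, lay far above the other P18 rats at 4.74 to 8.82 CPM. The regulator Cfi did not pass (-0.35, adjusted p = 0.622).

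For antigen presentation, 11 of 24 genes were identified, and 3 rose and none fell on average, with 4 DEGs in CD and 6 in BN. The 3 were the non-classical class I genes RT1-S3 and RT1-N3 and the loading factor Tapbp. RT1-S3 was at 32.9, 26.2 and 27.4 CPM in CD-NP and 48.5, 56.4 and 68.3 CPM in CD-P18. It was at 41.2, 53.3 and 52 CPM in BN-NP and 74.9, 80.5 and 108 CPM in BN-P18. The stages were apart in each strain (log2 fold change 0.92, standard error 0.111, adjusted p = 0.000567). The measured level was higher in BN at both stages, a strain difference that was not tested here. RT1-N3 rose by 0.54 and Tapbp by 0.34 (adjusted p = 0.0062 and 0.0404, the latter called in 8 of the 12 fits without 1 rat). Class I genes of the RT1 family are near copies of each other, so the gene that a read came from is uncertain. Their levels, also between strains, are uncertain for the same reason. The peptide transporter Tap1 rose past the thresholds in BN alone (0.82 against 0.06 in CD, strain-averaged adjusted p = 0.236).

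Cell division genes rose at a low level. Of 34 proliferation genes 11 were identified, 6 rose and none fell, with a median log2 fold change of 0.72 and with 3 DEGs in CD and 5 in BN. Mki67, the antigen Ki-67 of cycling cells, was at 16.5, 9.6 and 20.9 CPM in CD-NP and 28.8, 25.1 and 23.1 CPM in CD-P18. BN rats had 16.4, 12.7 and 17.9 CPM in NP and 26.5, 31.4 and 30.8 CPM in P18. All P18 rats were above all NP rats (log2 fold change 0.81, standard error 0.148, adjusted p = 0.0103). Cenpf, a kinetochore protein, rose by 0.92, Top2a, which untangles chromosomes, by 0.93, Cdk1, the mitotic kinase, by 1.29, and Prc1, of the central spindle, by 0.72 (adjusted p = 0.00993, 0.0175, 0.0299 and 0.0676), with Prc1 called in 4 of the 12 fits without 1 rat. The kinesin Kif20a is described below with the genes that passed in neither strain. The sum over the 11 genes was 64.6 to 92.6 CPM in NP and 96.2 to 128 CPM in P18. The number of higher DEGs was 5 to 7 when each rat was left out.

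Of 27 immediate early genes, which tissue handling can induce within minutes, 14 were identified and 5 rose on average, with 0 DEGs in CD and 3 in BN. These were the mRNA decay factor Zfp36 (0.34), the ERK phosphatase Dusp6 (0.58), the nuclear receptor Nr4a1 (0.75), Ier3 (0.39) and Jun (0.34), with adjusted p of 0.0127, 0.038, 0.0586, 0.0703 and 0.0864. Dusp6 was at 27.3, 32.2 and 36.8 CPM in NP and 38.7, 43.5 and 68.7 CPM in P18 without overlap. This count rests on single rats, since it fell to 1 without BN-NP replicate 2, to 2 without BN-NP replicate 1 or CD-NP replicate 2, and to 3 without BN-P18 replicate 3, CD-P18 replicate 2 or CD-P18 replicate 3.

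Genes for hormone signalling changed on average in both directions. Of 27 genes for prolactin, growth hormone and sex steroid signalling 15 were identified, and 3 rose and 1 fell on average. Of all genes with a symbol 5.69% were higher and 3.60% lower. By strain, 6 of the 15 were DEGs in CD and 1 in BN. Igf1, the growth factor induced by growth hormone, was at 36.9, 36.1 and 31.2 CPM in CD-NP and 82.4, 73.4 and 70.7 CPM in CD-P18. It was at 31.5, 46 and 30.4 CPM in BN-NP and 44.8, 57 and 38.7 CPM in BN-P18, so the BN stages overlapped. Its log2 fold change was 0.76 (standard error 0.147, adjusted p = 0.0164). Socs3, a feedback inhibitor of cytokine and prolactin receptors, was low, at 0.967, 1.35 and 2.17 CPM in NP and 2.23, 3.19 and 6.44 CPM in P18, without overlap (log2 fold change 1.42, standard error 0.301, adjusted p = 0.0278). Per1, a clock gene that glucocorticoids induce, rose by 0.52 (adjusted p = 0.0612), was called in 5 of the 12 fits without 1 rat, and was the 1 DEG of the average among 11 identified clock genes, of which 9 were DEGs in CD and 0 in BN. Hsd11b1, which regenerates active glucocorticoid, fell by 0.36 (adjusted p = 0.0343).

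Among the lower genes the smallest p belonged to Cyp2e1 (ENSRNOG00000012458), a cytochrome P450 that oxidises ethanol, acetone and other small molecules. It was at 401, 448 and 342 CPM in CD-NP and 275, 287 and 257 CPM in CD-P18. The BN levels were 388, 404 and 404 CPM in NP and 273, 230 and 259 CPM in P18. The lowest NP rat, at 342 CPM, stood above the highest P18 rat, at 287 CPM, and the log2 fold change was -0.60 (standard error 0.0673, adjusted p = 0.000375). Tmem144, a membrane protein, was at 22.7, 26.2 and 29.8 CPM in NP and 13.9, 15.6 and 18.8 CPM in P18 without overlap (log2 fold change -0.73, adjusted p = 0.001). Acmsd, which turns tryptophan breakdown away from the making of NAD, was at 178, 132 and 137 CPM in CD-NP and 116, 91.8 and 83.4 CPM in CD-P18, and at 136, 143 and 108 CPM in BN-NP and 88, 73.2 and 63 CPM in BN-P18. Within each strain the stages did not overlap (log2 fold change -0.70, standard error 0.111, adjusted p = 0.00423).

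The other lower genes with the smallest p changed by less than 2-fold each. They were the organic anion and phosphate transporter Slc17a4 (-0.66), the ubiquitin ligase component Neurl2 (-0.58), the secreted protein C1qtnf3 (-0.68), the secreted phosphoprotein Spp2 (-0.69), the aryl hydrocarbon receptor Ahr (-0.33) and the volume-regulated anion channel subunit Lrrc8b (-0.32). Their adjusted p values were 0.00171, 0.00392, 0.00423, 0.00571, 0.00591 and 0.0067. Ahr and Lrrc8b lay close to the fold change threshold and kept the call in 7 and 5 of the 12 fits without 1 rat. Spp2 differed between strains more than between stages, at 20.2, 32.7 and 33.8 CPM in CD-NP against 65.9, 66.2 and 63.2 CPM in BN-NP.

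The largest falls belonged to genes with low levels. Abca15, an ABC-type transporter, was at 7.16, 7.65 and 15.5 CPM in NP and 1.43, 3.47 and 4.4 CPM in P18, without overlap (log2 fold change -1.54, standard error 0.268, adjusted p = 0.00769). The transcription factor Pou3f1 had a log2 fold change of -1.76, RGD1559891 of -1.53 and Apoc2, the cofactor of lipoprotein lipase, of -1.25 (adjusted p = 0.0101, 0.0299 and 0.0376). Cyp27b1, which makes the active form of vitamin D, had the largest value among named genes with a mean of at least 1 CPM, -2.17, with a standard error of 0.575 (adjusted p = 0.0846). It was at 3.37, 5.11 and 1.05 CPM in BN-NP and 0.429, 0.273 and 0.531 CPM in BN-P18, but at or under 0.527 CPM in all 6 CD rats, so the average comes from BN rats. Its call held in 5 of the 12 fits without 1 rat. It did not hold with the mean of both strains' contrasts in place of the additive model (log2 fold change -1.72, adjusted p = 0.157). With the replicate block the adjusted p was 0.148.

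**Figure D3:**
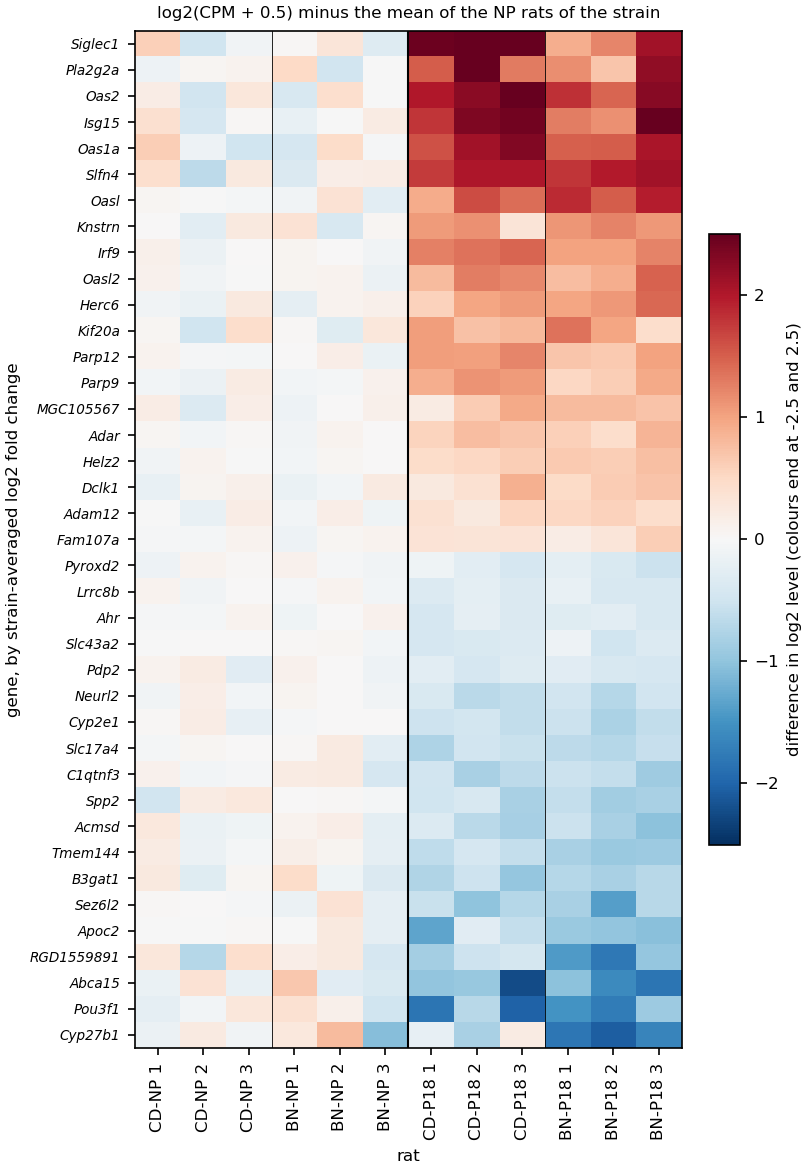
Difference of each rat's log2(CPM + 0.5) from the mean of the NP rats of its strain (colour, from -2.5 to 2.5) for the 39 genes named by p or by size of change (y axis, ordered by log2 fold change), with rats on the x axis, NP left and P18 right of the heavy line. The higher genes are red and the lower genes blue in both strains for most genes, while Cyp27b1 is blue in BN-P18 and mixed in CD-P18.

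Transport genes of the proximal tubule were lower in several cases. Of 30 genes for vitamin D, calcium, phosphate and magnesium 12 were identified, none rose and 5 fell on average, with 2 DEGs in CD and 3 in BN. Slc34a1, the main sodium-phosphate cotransporter of the proximal tubule, was at 2575, 3137 and 2435 CPM in CD-NP and 2199, 1999 and 1672 CPM in CD-P18. In BN it was at 2250, 2035 and 1899 CPM in NP and 1922, 1426 and 1505 CPM in P18. The CD stages did not overlap and the BN stages did (log2 fold change -0.41, standard error 0.0945, adjusted p = 0.042). Its relative Slc34a3 fell by 0.57, the parathyroid hormone receptor Pth1r by 0.40 and the vitamin D 25-hydroxylase Cyp2r1 by 0.35 (adjusted p = 0.0372, 0.0146 and 0.0584). Cyp2r1 lost its call in several fits without 1 rat, such as without BN-NP replicate 1 (adjusted p = 0.125) or BN-P18 replicate 3 (0.128). The fifth was Cyp27b1, whose average comes from BN rats. The count of lower genes was 2 without BN-P18 replicate 3 and 3 without BN-NP replicate 1 or 2, BN-P18 replicate 1 or 2, or CD-P18 replicate 2.

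Of 20 amino acid transport genes 12 were identified, 4 fell and 1 rose on average, with 4 DEGs in CD and 3 in BN. Slc6a19, the apical carrier of neutral amino acids, was at 125, 144 and 117 CPM in CD-NP and 106, 88.6 and 70.9 CPM in CD-P18. It was at 238, 229 and 166 CPM in BN-NP and 132, 83.1 and 94.9 CPM in BN-P18. The stages were apart in each strain (log2 fold change -0.79, standard error 0.143, adjusted p = 0.0103). The basolateral carriers Slc43a2 and Slc7a8 fell by 0.35 and 0.45, and the peptide carrier Slc15a1 by 0.46 (adjusted p = 0.0054, 0.0626 and 0.0616). Slc43a2 was at 159 to 178 CPM in NP and 121 to 158 CPM in P18, close but without overlap. Slc7a12, another amino acid carrier, rose by 0.44 (adjusted p = 0.0205). The count of lower genes was 1 without BN-P18 replicate 2 and 2 without BN-NP replicate 1 or 2, BN-P18 replicate 3, CD-NP replicate 1 or CD-P18 replicate 3, and the count of higher genes was 2 without CD-NP replicate 3.

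Of all genes with a symbol 9.29% were DEGs and 3.60% were lower, so a single DEG says little about a list. Such single DEGs turned up in other lists, all lower. They were the potassium channel Kcnj15 (-0.39, 1 of 17 identified sodium and potassium transport genes), the fatty acid importer and activator Slc27a2 (-0.42, 1 of 7 for fatty acid oxidation), the fructose transporter Slc2a5 (-0.50, 1 of 6 for glucose) and the vasodilator peptide adrenomedullin, Adm (-0.50, 1 of 12 vascular and of 5 hypoxia genes). Their adjusted p values were 0.0475, 0.0382, 0.0475 and 0.0761, and the call held in 6, 10, 8 and 4 of the 12 fits without 1 rat. None of the identified genes passed for cholesterol (13 of 29 listed), heat shock and ER stress (16 of 28), glutathione (18 of 30), organic ion transport (13 of 30), extracellular matrix (10 of 33), tubular injury (9 of 25), renin and aldosterone (4 of 14) or water and urea handling (3 of 17), and the genes not identified may hold others. By strain, heat shock and ER stress held 10 DEGs in CD and 0 in BN, and cholesterol 2 in CD and 5 in BN.

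The markers of kidney cell types held 2 DEGs, both lower, 1 of 5 identified for the proximal tubule and 1 of 5 for podocytes. Of all genes with a symbol 9.29% were DEGs and 3.60% were lower, so 2 DEGs say little about the cell types. The 5 identified proximal tubule markers summed to 3119 to 4664 CPM over the 12 rats, the 5 podocyte markers to 630 to 1045 CPM and the 5 endothelial markers to 378 to 446 CPM, so the tissue was kidney in all. Proximal tubule markers, Slc34a1 included, were at 3264 to 4664 CPM in NP and 3119 to 3988 CPM in P18. Slc34a1 made up a large part of this sum and was the 1 DEG among these markers. The other 4 did not pass, so the sum does not show a fall of the markers in general. Podocyte markers summed to 793, 1045 and 819 CPM in CD-NP and 682, 708 and 630 CPM in CD-P18. In BN they summed to 889, 841 and 812 CPM in NP and 809, 717 and 781 CPM in P18. Their median log2 fold change was -0.38 on average, -0.52 in CD and -0.13 in BN. Of these 5 markers 4 were DEGs in CD, 0 in BN and 1 on average. This was Magi2, a scaffold of the slit diaphragm, at 17.2, 19.9 and 25.1 CPM in NP and 13.6, 15.5 and 17.1 CPM in P18 without overlap (log2 fold change -0.38, standard error 0.0817, adjusted p = 0.0278). Nphs1, or nephrin, also had no overlap, at 91.5 to 153 CPM in NP and 73.3 to 91.1 CPM in P18, and missed the threshold (-0.41, adjusted p = 0.103).

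**Figure D4:**
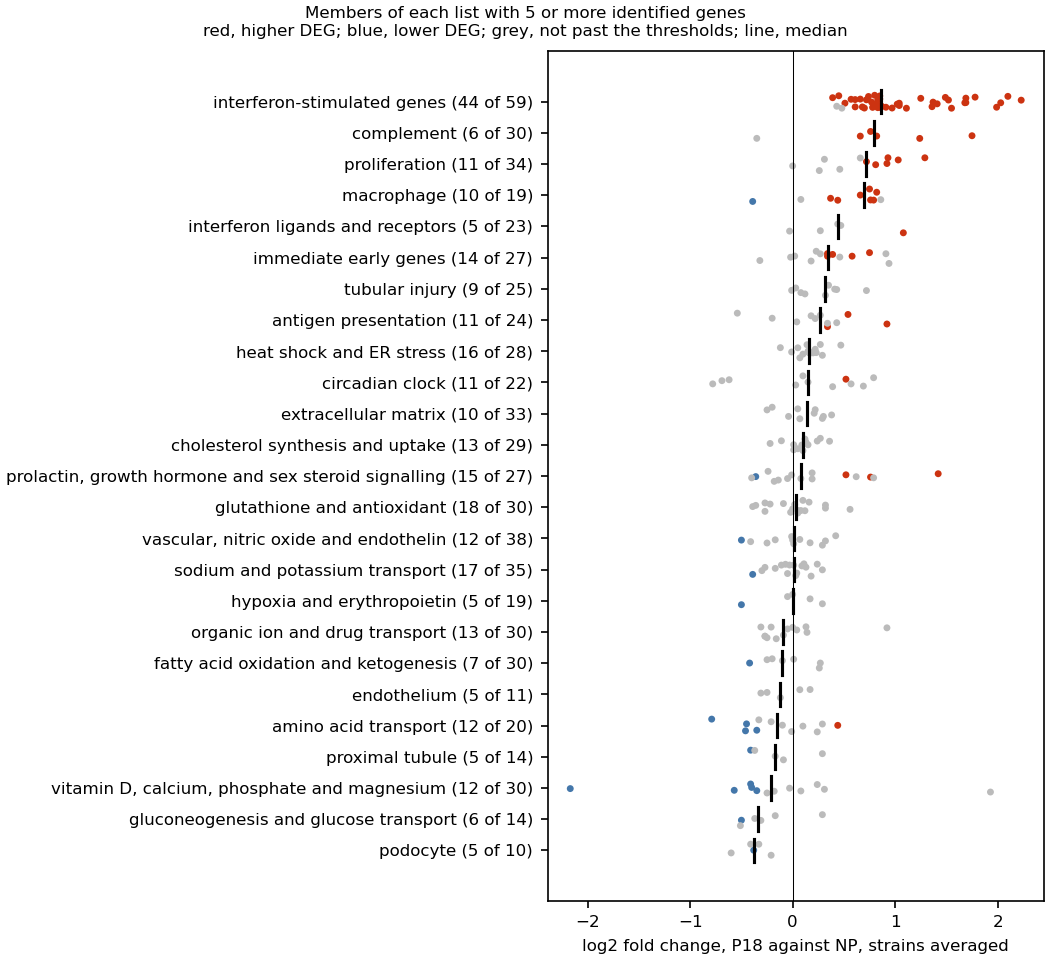
Log2 fold change, P18 against NP averaged over strains (x axis), of the identified members of the 25 lists with at least 5 of them (y axis, identified of listed in brackets), with the median as a line. The interferon list has 42 red points (higher DEGs) of 44, and blue points (lower DEGs) are most frequent for vitamin D and phosphate, 5 of 12, and amino acid transport, 4 of 12.

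The average gained precision from having 6 rats on each side. The median standard error of the log2 fold change was 0.0975 for the average, against 0.132 in CD and 0.133 in BN. Of the 309 DEGs, 76 were also DEGs in both strains when each was tested within the same fit (62 higher, 14 lower), 121 in CD but not BN and 46 in BN but not CD. The remaining 66, or 0.464% of the genes tested, passed in neither strain alone, 32 of them higher and 34 lower. Conversely, 472 of the 669 DEGs of CD (4.71% of genes tested) and 77 of the 199 DEGs of BN (1.40%) were not DEGs of the average, and 266 and 44 of these had opposite signs in the strains. The comparisons share their rats, so these counts say how the lists divide and not how far the strains resemble each other.

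Of the 66 genes, 52 had a fold change over the threshold in both strains. The absolute strain-averaged log2 fold changes of the 66 ran from 0.32 to 1.54 with a median of 0.50. In 53 of them the unadjusted p was under 0.05 in both strains, and in the other 13 it was so in 1 strain. In 31 the stages did not overlap in either strain and went the same way, which 2.54% of all tested genes did. The 66 were called on these same rats, so a larger share follows from the choice. With the fit repeated without each rat, 12 of the 66 kept their strain-averaged call in all 12 fits. The number of such genes was 102 without CD-P18 replicate 1 and 112 without CD-NP replicate 3.

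Symbols were known for 42 of the 66. The 10 with the smallest p held 6 higher genes led by Fam107a, an actin-binding protein, at 36.2, 42.9 and 47.6 CPM in NP and 45.6, 56.4 and 61.4 CPM in P18 (log2 fold change 0.36, standard error 0.0705, adjusted p = 0.0175). Adam12, a metalloprotease, was at 10.6, 9.39 and 12.3 CPM in CD-NP and 14.1, 12.7 and 15.7 CPM in CD-P18. BN rats had 9.24, 11 and 9.06 CPM in NP and 14.1, 14.8 and 13.3 CPM in P18. Every P18 rat stood above every NP rat, with log2 fold changes of 0.39 in CD and 0.53 in BN that passed in neither (adjusted p = 0.134 and 0.105) and an average of 0.46 that did (adjusted p = 0.0203). Dclk1, a microtubule-associated kinase, likewise had no overlap, at 11, 13.5 and 15.7 CPM in NP and 17.1, 19.2 and 27.1 CPM in P18 (log2 fold change 0.58, adjusted p = 0.0213).

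Of those 10 genes, 2 are known to act in mitosis. Knstrn, a kinetochore protein, was at 0.243 to 0.761 CPM in NP and 0.713 to 1.82 CPM in P18 (log2 fold change 1.54, standard error 0.311, adjusted p = 0.02). Kif20a, a kinesin of the dividing cell, was at 2.22, 1.37 and 3.07 CPM in CD-NP and 4.89, 3.86 and 4.08 CPM in CD-P18. It was at 1.96, 1.46 and 2.42 CPM in BN-NP and 5.69, 4.28 and 2.76 CPM in BN-P18. Both stages were apart within each strain, with adjusted p of 0.141 in CD and 0.185 in BN, and 0.033 for the average of 1.03. MGC105567 was also higher (0.77, adjusted p = 0.033).

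The 4 lower genes among the 10 were Sez6l2, B3gat1, Pdp2 and Pyroxd2. Sez6l2, a membrane protein, was at 3.19, 3.16 and 3.07 CPM in CD-NP and 1.97, 1.32 and 1.73 CPM in CD-P18. It was at 3.04, 4.5 and 2.84 CPM in BN-NP and 1.72, 1 and 1.91 CPM in BN-P18. No P18 rat reached the lowest NP rat, and the log2 fold change was -1.03 (standard error 0.205, adjusted p = 0.0188), with 0.129 in CD and 0.11 in BN. B3gat1, a glucuronyltransferase, also had no overlap, at 3.69, 5.09 and 8.15 CPM in NP and 2.14, 3.09 and 3.4 CPM in P18 (log2 fold change -0.86, adjusted p = 0.0226). Pdp2, a phosphatase that activates pyruvate dehydrogenase, and Pyroxd2 fell by 0.36 and 0.32 (adjusted p = 0.0247 and 0.029). Pyroxd2 lay at the fold change threshold and kept its call in 5 of the 12 fits without 1 rat.

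Some changes were precise but small. At an adjusted p under 0.1, 91 further genes had differences under 25%, among them Cat, the peroxide-degrading catalase, at 1308 to 1575 CPM in NP and 1130 to 1375 CPM in P18 (log2 fold change -0.22, standard error 0.0485, adjusted p = 0.0325). Col4a1, a basement membrane collagen, had no overlap between stages, at 394 to 451 CPM in NP and 470 to 524 CPM in P18 (log2 fold change 0.22, standard error 0.0494, adjusted p = 0.0363).

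**Figure D5:**
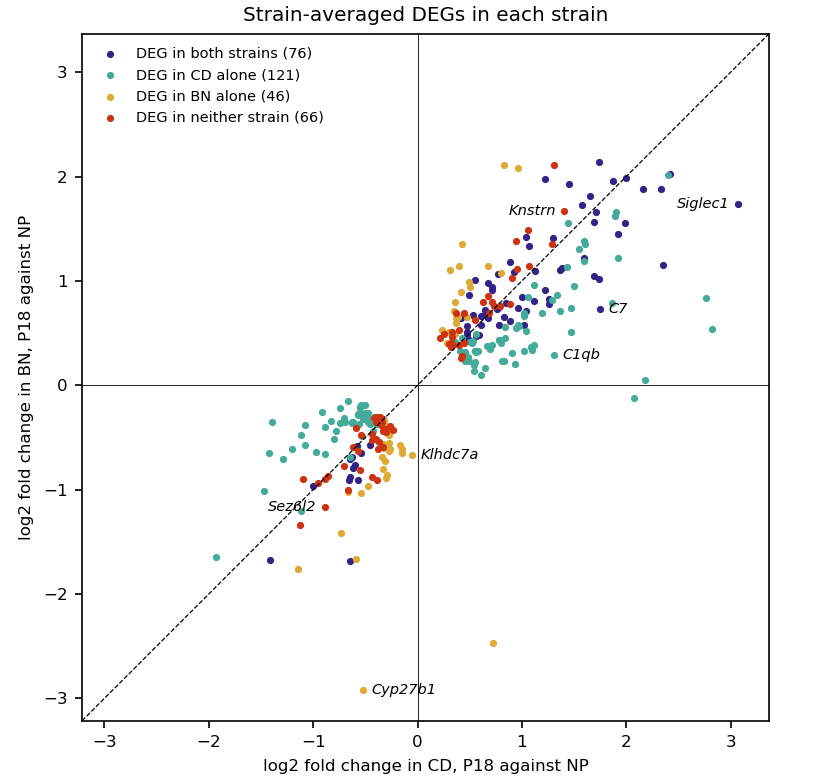
Log2 fold change of P18 against NP in BN (y axis) and in CD (x axis) for the 309 strain-averaged DEGs, coloured by the strains in which each was also a DEG. The 66 red genes, DEGs in neither strain, lie near the dashed line of equal change, which their choice favours. Cyp27b1, C7, C1qb and Klhdc7a lie off it.

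The change had the same sign in both strains for 307 of the 309 DEGs, which choosing genes by their average largely brings about. The others were Ribc2, at 1.55, 2.32 and 0.658 CPM in CD-NP and 6, 6.61 and 6.73 CPM in CD-P18 but at most 0.122 CPM in BN rats, and Mcpt1, a mast cell protease, at 2.5, 1.83 and 5.37 CPM in BN-NP and 0.322, 0.182 and 1.28 CPM in BN-P18 but at most 0.11 CPM in CD rats. Both averages therefore rest on 1 strain, and with the mean of both strains' contrasts in place of the additive model neither passed (log2 fold change 0.98 and adjusted p = 0.629 for Ribc2, -0.87 and 0.85 for Mcpt1). The call of Mcpt1 (log2 fold change -2.20, adjusted p = 0.0911) held in 3 of the 12 fits without 1 rat and not in DESeq2 (adjusted p = 0.107), and its log2 fold change was -1.59 without BN-NP replicate 3 and -3.00 without BN-P18 replicate 3. A test of the interaction between pregnancy and strain passed at an adjusted p under 0.1 for 3 of the 309 (C7, C1qb and Klhdc7a), where it passed for 0.943% of all tested genes. Klhdc7a was a DEG at an adjusted p of 0.0974, and lost that call in 10 of the 12 fits without 1 rat, with the replicate block (0.17) and with median-of-ratios scaling (0.103). A miss in this test does not show that the strains changed alike. Of the 309 DEGs, 193 had no overlap between stages in each strain in the same direction (137 higher, 56 lower). Over all tested genes the shares so placed were 2.54% (1.51% higher, 1.03% lower). Among the 6 and 6 rats, 108 DEGs had no overlap (89 higher, 19 lower), against 1.10% of all tested genes (0.760% higher, 0.345% lower). The DEGs were called on these same rats, so larger shares follow from the choice.

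Over the 12 fits without 1 rat, 175 of the 309 genes stayed DEGs throughout, 129 of the 186 higher and 46 of the 123 lower. The count of lower DEGs was 71 to 75 without BN-NP replicate 1, BN-NP replicate 2, BN-P18 replicate 2, BN-P18 replicate 3 or CD-P18 replicate 3.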

How the data were processed

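Total RNA of kidney sections was depleted of ribosomal RNA and sequenced by the authors as stranded single-end libraries. Per the submitters' processing notes, tools included bcl2fastq 1.8.4, Trimmomatic, STAR 2.5.2, HTSeq 0.6.1 and edgeR 3.26.8, on the Rnor_6.0 build. The deposited table holds raw counts per Ensembl gene, not normalized, for 12 libraries. Lines of the table that name no gene held 72.5 to 75.6% of the entries of a library and were left out. Replicates differed by more than counting noise (chi-square per degree of freedom 5.16 to 12.2), so no library was a copy of another. Whether the rats of a group came from separate litters is not given in the sources used here.

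Counts were scaled by TMM (factors 0.9564 to 1.032), filtered with filterByExpr, and tested with edgeR 4.0.16 (R 4.3.3, limma 3.58.1) by the quasi-likelihood F test with Benjamini-Hochberg adjustment. The strain-averaged effect came from strain + stage, and the effects within a strain and the interaction from a fit of the 4 groups. A standard error is the absolute log2 fold change divided by the square root of F. CPM are counts per 1000000 of the scaled library. The median-of-ratios scaling and Wald test of DESeq2 1.42.0 served as alternatives, with other scalings, filters, models, thresholds, a replicate block and each rat left out.

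The table gives identifiers only. Symbols were paired by matching the log2 fold change (within 0.004) and mean log2 CPM (within 0.001) of each gene with a table of the study that was used for identification alone. Of 3064 symbols, 3054 had a single identifier. With the sign of the fold change turned, 0.392% found any. A gene not identified may be unchanged, untested or unpaired. Columns of the authors' own comparisons in that table were not otherwise used.

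Genes were named by rule: with a symbol and past the thresholds, the 10 smallest p in each direction, the 5 largest changes in each direction with a mean of at least 1 CPM, the 10 smallest p among DEGs of neither strain, and up to 6 members per list, of which some are given by count only. The 42 lists (24 pathways, 18 cell types), the comparison and its members were chosen with earlier results of these data known. Ribc2, Mcpt1, Klhdc7a, Eif2ak2, Lgals3bp, Ifi35, Gbp2, Tap1, Cd68, Lyve1, Mrc1, Cat, Col4a1 and the genes on no list named in the closing section were named after their values were seen.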

Additional observations from a re-analysis of the deposited data

Results flagged for a closer look

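For 4 named genes the change at P18 differed between the strains by the interaction test of edgeR's quasi-likelihood fit. C7, of the membrane attack complex, rose by 1.75 on the log2 scale in CD and 0.73 in BN (adjusted p = 0.0506 for the difference, P18 above NP in all rats of both strains). C1qb, a subunit of C1q, had log2 fold changes of 1.31 in CD and 0.29 in BN (adjusted p = 0.0868), and its BN stages overlapped. Klhdc7a had log2 fold changes of -0.05 in CD and -0.67 in BN (adjusted p = 0.0281), and its strain-averaged call held in 2 of the 12 fits without 1 rat. Mrc1, the mannose receptor of macrophages, had log2 fold changes of 1.86 in CD and -0.22 in BN (adjusted p = 0.00698). For these genes the strain-averaged value lies between 2 unlike changes. With 3 rats in a group, single rats were not screened as outliers.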

How the results depend on the processing

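Scaling, filter and tool kept the count of strain-averaged DEGs within 1.5 times of 309, at 284 to 432. Under TMM, median-of-ratios and upper-quartile scaling the median of all genes was -0.004, -0.002 and -0.008 on the log2 scale. Without strain in the model there were 151 DEGs (112 higher, 39 lower), and with thresholds of 0.05 on the adjusted p and 1.5 on the fold there were 130 (97 higher, 33 lower). Genes past the thresholds only when the strains were averaged numbered 66, against 33 at these stricter thresholds and 102 with each strain fitted on its own. The interaction test passed for 134 genes, and for 329 without the filter on low counts. The causes were not tested.

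With each rat left out in turn, DEGs numbered 227 to 340 and the lower ones 71 to 150, genes past the thresholds only on average numbered 49 to 112, and interaction calls 50 to 282. Interaction calls were 50, 51, 61, 67 and 70 without BN-P18 replicate 2, BN-NP replicate 2, CD-NP replicate 2, CD-P18 replicate 1 and BN-NP replicate 1, and 282 without CD-NP replicate 1.

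Replicate numbers are shared by NP and P18 rats. Deviations of same-numbered rats correlated at -0.105 to 0.27 over 6 pairs, against -0.279 to 0.171 for rats with different numbers. So few pairs cannot tell whether the number pairs the rats. With the number as a replicate block there were 339 DEGs (197 higher, 142 lower), 44 of them in neither strain, and 337 interaction calls. A depth of 8274159 to 11879451 reads on genes per library limits what can be seen of genes below 1 CPM.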

Other observations

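Among DEGs with a symbol, 95 higher and 89 lower genes were on no list, and those described here were picked after their values were seen. Among the higher ones, 5 genes stood out. Apol9a, an apolipoprotein L family member, was at 2.85 to 6.21 CPM in NP and 9.21 to 19.2 CPM in P18 without overlap (log2 fold change 1.77, adjusted p = 0.000461). Samd9 was at 15.9 to 31.8 CPM and 43.8 to 72.1 CPM, also without overlap (log2 fold change 1.20, adjusted p = 0.000567). Hgf, the hepatocyte growth factor that acts on tubule cells, was at 57.7 to 78.1 CPM in NP and 86.1 to 124 CPM in P18 without overlap (log2 fold change 0.55, adjusted p = 0.00611). The transcription factor Cebpd, at 7.06 to 11.2 CPM and 12.2 to 19.6 CPM, and the kinetochore gene Ndc80, at 1.05 to 1.69 CPM and 2.02 to 3.92 CPM, did not overlap either (log2 fold changes 0.75 and 0.97, adjusted p = 0.00581 and 0.035). All 5 kept the call without any single rat.

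Among the lower genes on no list, Ddc, which makes dopamine in the proximal tubule, was at 75.7 to 95 CPM in NP and 49.7 to 68.5 CPM in P18 without overlap (log2 fold change -0.51, adjusted p = 0.00728). Bhmt, which methylates homocysteine, was at 21.7 to 39.2 CPM and 7.44 to 19.5 CPM without overlap (log2 fold change -0.80, adjusted p = 0.0626, kept in 6 of the 12 fits without 1 rat). Aplnr, the receptor of apelin, was at 13.8 to 21.9 CPM in NP and 6.94 to 11.4 CPM in P18 without overlap (log2 fold change -0.77, adjusted p = 0.0129). The apolipoproteins Apoe and Apob had log2 fold changes of -0.60 and -0.86 (adjusted p = 0.0148 and 0.033).

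Of DEGs without a symbol there were 38. The higher ENSRNOG00000059097 had a p next to that of Irf9. These tests used edgeR's quasi-likelihood fit.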
